A study of Drosophila melanogaster with 3 samples.

Results

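Distal peaks are the Gsb-n peaks that lay more than 10 kb from any protein-coding transcription start site (TSS). They were taken from the list of peaks kept by the irreproducible discovery rate (IDR) procedure, which retains peaks by how well replicates rank them. A peak belonged to the set when its summit was over 10000 bp from the nearest TSS of any protein-coding transcript in the Ensembl annotation, whether in an intron or between genes. The rule selected 849 peaks and left 4897 others, so distal peaks were 14.8% of the IDR list (95% Wilson interval 13.9 to 15.7%). The data came from chromatin immunoprecipitation and sequencing of whole Drosophila melanogaster embryos, aged 4 to 14 hours. All 3 samples were biological replicates of 1 group, a transgenic line stably expressing gooseberry-neuro (gsb-n) with a C-terminal green fluorescent protein (GFP), precipitated with an antibody against GFP. There was 1 line, no second genotype and no control sample among the samples used here, so a signal that any tagged protein would give cannot be told apart from binding by Gsb-n. The tissue of origin of each peak in the whole embryo is unknown.

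Gsb-n belongs to the Pax family of transcription factors and binds DNA through both a homeodomain and a paired domain. It is expressed in the developing nervous system and is related to its neighbour gooseberry (gsb), a segment polarity gene. In Drosophila, regulatory sequences far from a TSS are often enhancers, which can lie in introns or between genes and can act on a promoter other than the closest one. Developmental regulators with complex expression patterns tend to have large introns and long flanking regions that hold many such enhancers. The nearest gene is therefore used below as an address for a peak and not as its target.

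The windows reaching 100 bp to either side of the summits of the highest intronic and intergenic distal peaks are shown first, because these are the places far from any TSS where most signal was recovered. The peaks at CG13323 and sbb were higher still, and no sequence of their chromosome arm is printed. The sequences are those of the RefSeq copy of genome release 6 (dm6), from 5′ to 3′. Capitals mark GCCAT or its reverse complement ATGGC, the core recognised by the Polycomb group protein Pleiohomeotic (Pho). The homeodomain core TAATTA and the octamer described next would also be in capitals, and none of these windows held either. The last 2 windows were added as the next highest that hold GCCAT.
osa intron at chr3R:17704313-17704513, plus strand: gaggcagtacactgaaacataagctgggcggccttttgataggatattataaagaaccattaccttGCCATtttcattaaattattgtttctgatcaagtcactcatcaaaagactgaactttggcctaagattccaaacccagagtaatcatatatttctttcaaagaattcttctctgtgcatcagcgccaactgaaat
osa intron near CG31249 at chr3R:17700481-17700681, plus strand: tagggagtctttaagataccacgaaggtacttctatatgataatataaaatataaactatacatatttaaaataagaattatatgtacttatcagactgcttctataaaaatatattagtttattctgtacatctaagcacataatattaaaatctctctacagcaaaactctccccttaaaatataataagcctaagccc
fz intron at chr3L:14303973-14304173, plus strand: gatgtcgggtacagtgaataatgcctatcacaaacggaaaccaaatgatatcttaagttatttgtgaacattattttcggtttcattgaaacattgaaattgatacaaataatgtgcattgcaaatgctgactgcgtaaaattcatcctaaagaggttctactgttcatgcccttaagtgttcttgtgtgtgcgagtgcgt
intergenic, nearest CG13896, at chr3L:724650-724850, plus strand: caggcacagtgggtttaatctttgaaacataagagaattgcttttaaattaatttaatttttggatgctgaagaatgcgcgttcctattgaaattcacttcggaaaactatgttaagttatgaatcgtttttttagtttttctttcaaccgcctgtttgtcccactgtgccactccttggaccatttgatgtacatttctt
intergenic, nearest SoxN, at chr2L:8843693-8843893, plus strand: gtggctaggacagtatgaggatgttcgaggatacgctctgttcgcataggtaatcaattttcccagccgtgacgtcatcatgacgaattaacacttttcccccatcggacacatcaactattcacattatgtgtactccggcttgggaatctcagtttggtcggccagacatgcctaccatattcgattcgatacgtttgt
intergenic, nearest CG4375, at chr2L:1007948-1008148, plus strand: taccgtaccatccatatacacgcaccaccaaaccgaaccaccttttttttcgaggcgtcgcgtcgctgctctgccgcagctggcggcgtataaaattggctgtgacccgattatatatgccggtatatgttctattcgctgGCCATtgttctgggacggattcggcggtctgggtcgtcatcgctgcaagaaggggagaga
intergenic, nearest chinmo, at chr2L:1638668-1638868, plus strand: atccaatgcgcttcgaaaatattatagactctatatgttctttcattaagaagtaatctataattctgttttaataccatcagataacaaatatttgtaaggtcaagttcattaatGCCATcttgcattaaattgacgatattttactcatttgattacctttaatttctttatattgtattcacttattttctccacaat
N intron at chrX:3162643-3162843, plus strand: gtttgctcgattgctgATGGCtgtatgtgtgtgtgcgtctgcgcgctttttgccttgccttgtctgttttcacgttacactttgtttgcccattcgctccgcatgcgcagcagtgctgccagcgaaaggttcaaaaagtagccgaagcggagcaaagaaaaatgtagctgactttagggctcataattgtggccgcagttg
The osa window was AT-rich at 36.8% GC, and the window near CG31249 had 26.4%. The fz, CG13896, SoxN and CG4375 windows had 36.3, 34.8, 46.3 and 53.7% GC, and those at chinmo and N had 25.9 and 50.2%. The highest distal peaks thus shared neither one base composition nor the homeodomain core.

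The octamer CACTGAGA was the sequence of 8 bases that most separated distal summits from their own flanks. It was found in a scan of all octamers that was added after the motif results were known. The copies at the 10 highest distal peaks of the arms shown that hold it within 100 bp of the summit are given, each on the strand that reads CACTGAGA, with the octamer in capitals.
CG6959 at chr3R:11849890-11849923, minus strand: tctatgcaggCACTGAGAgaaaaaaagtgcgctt
CG42342 at chr3R:16524219-16524252, plus strand: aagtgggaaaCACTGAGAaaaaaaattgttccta
CheA75a at chr3L:18236087-18236120, minus strand: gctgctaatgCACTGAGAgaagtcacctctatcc
Reg-2 at chr3L:621628-621661, minus strand: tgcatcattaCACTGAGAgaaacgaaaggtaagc
pnt at chr3R:23326402-23326435, plus strand: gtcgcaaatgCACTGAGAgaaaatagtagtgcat
noc at chr2L:14502694-14502727, plus strand: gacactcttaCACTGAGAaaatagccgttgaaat
CG31797 at chr2L:19226476-19226509, minus strand: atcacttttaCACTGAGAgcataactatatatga
Diedel3 at chrX:19018183-19018216, plus strand: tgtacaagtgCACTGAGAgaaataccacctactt
grim at chr3L:18349522-18349555, minus strand: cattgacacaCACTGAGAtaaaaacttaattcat
Lim1 at chrX:8774164-8774197, plus strand: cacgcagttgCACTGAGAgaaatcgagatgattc
Across all 56 copies in distal windows, the base before the octamer was G in 60.7% and A in 35.7%, and the base before that was T in 62.5%. After the octamer, G stood in 53.6% and A in 33.9% of copies at the first position, and A in 89.3, 85.7, 78.6 and 57.1% at the second to the fifth position. The copies thus had a longer shared sequence, with T and G or A before the octamer and a run of A after it.

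The octamer was frequent at distal summits and rare beside them. Of 784 distal peaks whose flank was free of other peaks, 45 (5.74%) held it in the summit window and 2 (0.255%) in the window centred 1000 bp downstream. That was 22.5-fold more, or 4.49 on the log2 scale (exact McNemar test, two-sided, Benjamini-Hochberg adjusted p = 5.28e-07 over 32896 octamers). The size rests on the 2 flank windows that held it: the log2 fold was 3.64 against the upstream flank and 2.70 with windows of 200 bp to either side. The scan called 8 of 32896 octamers (0.0243%), all of them higher at the summit, against 806 at an unadjusted p under 0.05. With windows of 50 bp to either side none was called (exact McNemar test, 351 at an unadjusted p under 0.05), and the log2 fold of CACTGAGA was 4.00. The other 7 were TGAGAGAA and ACTGAGAG, then TCAGTGCA and CTCAGTGC, then ATGCACTG and CTGAGAGA, and last TACACTGA, and each overlaps the extended sequence above or its reverse complement. Counted over all 849 distal peaks, 52 windows held CACTGAGA (6.12%, Wilson interval 4.70 to 7.94%). In consecutive windows of the same length of all sequence over 10 kb from a TSS, 0.619% held it (1219 of 196850).

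Intronic and intergenic distal peaks held the octamer in similar shares, 6.03% (26 of 431) and 6.25% (26 of 416). The distal peaks among the top peaks of each replicate's own list, taken to the length of the IDR list, had it in 5.87, 6.31 and 4.37% of windows in replicates 1, 2 and 3, a mean of 5.51 ± 1.02% (SD, n = 3). Replicate 3 was the lowest. The downstream and upstream flanks of the IDR peaks held it in 0.471 and 0.589%, but since the octamer was chosen for its excess over flanks at peaks made from the same replicates, values above those are built in. Distal peaks of the pooled list that fell below the IDR list held it in 1.98% (106 of 5347).

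The octamer was not a feature of distal peaks alone. It stood in 6.12% of distal windows, 3.87% (111 of 2866) of windows at peaks over 500 bp and up to 10 kb from a TSS (mid-range peaks below) and 1.62% (33 of 2031) of those within 500 bp of one. The difference between distal and other peaks was not tested, because the octamer was chosen on the distal peaks. All 8 called octamers also passed the same test in the mid-range peaks. Copies were often in sequence that the genome assembly soft-masks as repetitive or of low complexity: 32 of 56 copies (57.1%) in distal windows were wholly masked, against 407 of 1275 (31.9%) in all sequence over 10 kb from a TSS. Distal windows as a whole were 20% masked and that sequence 29.4%. The part of repeats in the octamer's frequency was not tested.

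**Figure D1:**
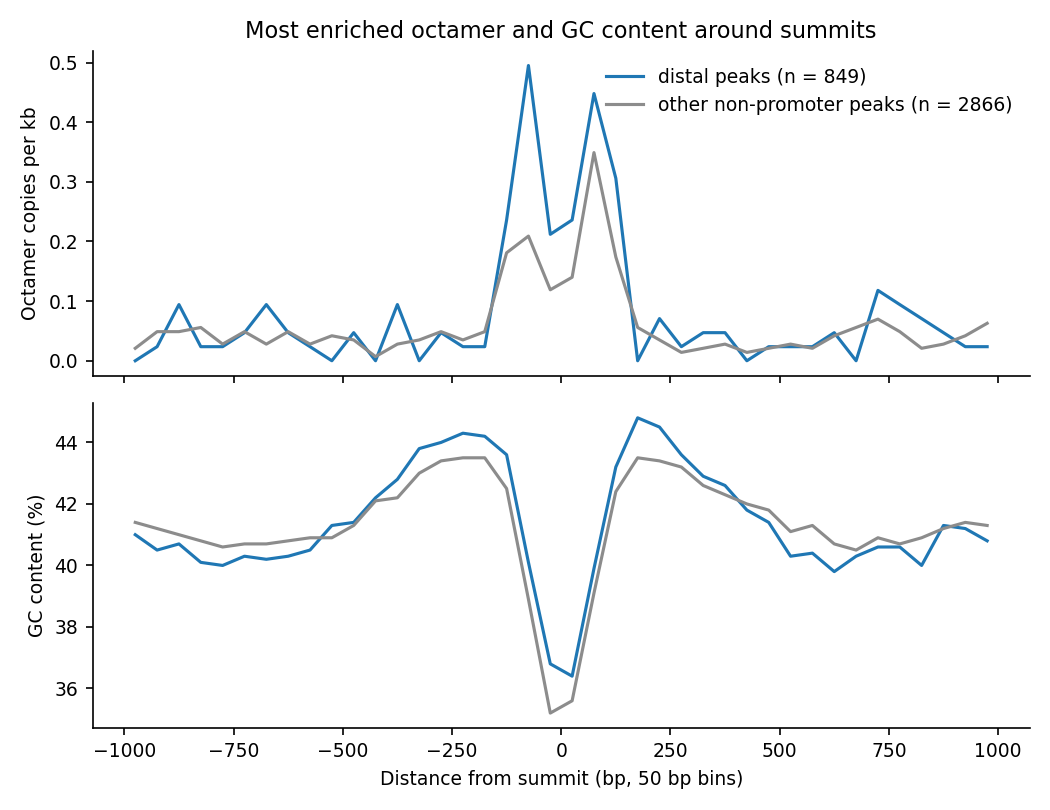
Octamer copies per kb (top) and GC content in percent (bottom) in 50 bp bins from 1000 bp upstream to 1000 bp downstream of the summit, for distal peaks (blue, n = 849) and peaks over 500 bp and up to 10 kb from a TSS (grey, n = 2866). Octamer copies at distal peaks are highest 50 to 100 bp to either side of the summit, with 21 and 19 copies, and GC content is lowest at the summit, at 36.8 and 36.4%.

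Copies were most frequent beside the summit. The 2 bins at 50 to 100 bp to the left and right of distal summits held 21 and 19 copies, and the 2 bins next to the summit held 9 and 10. Bins beyond 200 bp held at most 5 copies each. Base composition followed a pattern of its own: GC content at distal peaks was 36.8 and 36.4% in the 50 bp to either side of the summit, 44.2 and 44.8% at 150 to 200 bp and 41.0 and 40.8% at the ends of the profile. The plot of copies and GC content by position shows the same shape for the mid-range peaks.

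No listed binding sequence was called at distal summits against the sequence downstream. None of 23 motifs (0%) was called between summit and downstream flank (exact McNemar test, Benjamini-Hochberg adjusted), and none had an unadjusted p under 0.05. The homeodomain core TAATTA, which Gsb-n's own class of homeodomain recognises, was in 16.7% of summits and 15.3% of flanks (131 and 120 of 784, exact adjusted p = 0.767). The paired-class dimer, TAAT and ATTA 2 or 3 bases apart, was in 3.95% of summits and 3.70% of flanks (exact adjusted p = 0.936). The paired-domain cores GTCACG and GTTCC were in 4.85 and 21.0% of summits and 3.57 and 19.0% of flanks (exact adjusted p = 0.666 and 0.767). In consecutive windows of all sequence over 10 kb from a TSS these 4 motifs had shares of 13.0, 2.89, 3.35 and 21.9%. Each motif was searched on both strands. Against the flank upstream, 1 motif was called, the Pho core GCCAT, which was lower at the summit (30.8 against 39.0%, exact McNemar adjusted p = 0.0201).

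Hexamers showed the differences between summit and flank that the motif list did not. The scan, added later, called 69 of 2080 hexamers (3.32%), 45 higher and 24 lower at distal summits. It did not adjust for GC content, which was 36.8 and 36.4% beside distal summits and 40.8% at the downstream end of the profile. The part of base composition in these calls was not tested. AAATAT led, in 46.9% of summits against 33.7% of flanks (exact McNemar test, adjusted p = 9.60e-05). CACTGA, the first part of the octamer, followed with 15.3 against 6.63% (exact adjusted p = 9.60e-05). GCCAGA was the first of the lower ones, with 5.23 against 12.6% (exact adjusted p = 0.000164). All 45 higher hexamers were also more frequent at summits than flanks in the mid-range peaks, and 38 of them passed there.

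No motif separated distal peaks from the peaks most like them. Against the 2866 mid-range peaks, none of 23 motifs (0%) was called by Fisher's exact test with Benjamini-Hochberg adjustment, and 2 had an unadjusted p under 0.05. These were the forkhead sequence TAAACA, in 20.5% of distal and 24.9% of other windows (exact adjusted p = 0.206), and GCCAT, in 31.7 and 27.6% (exact adjusted p = 0.281). TAATTA was in 16.3% of distal windows (interval 13.9 to 18.9%) and 16.9% of the others (15.6 to 18.3%). Of 2080 hexamers, 2 were called (0.0962%) and 171 had an unadjusted p under 0.05. CTGTAA was in 5.06% of distal and 9.80% of other windows, and CGGGAA in 8.01% of distal and 4.12% of other windows (Fisher's exact test, adjusted p = 0.0148 for both). Mean GC content was 38.3% in distal windows, 37.2% in mid-range windows and 36.3% within 500 bp of a TSS, and with GC content in a logistic model both adjusted p-values were 0.0388. Both calls ended with windows of 50 bp to either side and with a distance of 5 or 20 kb. On the log2 scale the fold of CGGGAA, 0.96, was then 1.18, 0.41 and 0.89, and that of CTGTAA, -0.95, was -0.58, -0.67 and -0.99, all in the same direction.

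Like the mid-range peaks, distal peaks rarely held the core promoter elements found at peaks close to a TSS. Against all 4897 other peaks, 5 of 23 motifs were called (21.7%). The DRE sequence TATCGATA, bound by the promoter factor Dref, was in 3 distal windows (0.353%) and in 3.02% of the others (Fisher's exact test, adjusted p = 3.44e-06). The sequence GGTCACAC of the promoter factor M1BP was in 2 distal windows (0.236%) and 2.61% of the others (exact adjusted p = 5.54e-06). Mid-range windows held these in 0.349 and 0.454%, and neither differed from distal windows by the test (exact adjusted p = 1 and 0.957). The E-box CAGCTG of proneural factors was in 5.18 and 8.05% and TAAACA in 20.5 and 25.3% (exact adjusted p = 0.0183 for both). Mid-range windows held CAGCTG in 6.42%, which did not differ from distal windows by Fisher's exact test (adjusted p = 0.719). Of the 5, GCCAT alone was more frequent in distal windows, in 31.7 against 27.1% (exact adjusted p = 0.032), and 34.2% of consecutive windows of all sequence over 10 kb from a TSS held it. The windows within 500 bp of a TSS had DRE in 6.79%, the M1BP sequence in 5.66% and CAGCTG in 10.3%.

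Distal peaks ranged widely in height. Signal is the authors' own measure of peak height and serves here only to rank peaks within a list. The IDR and pooled lists share its scale, and the replicate lists have others. Signal is given below on the scale of the IDR list. It ran from 158.2 to 1947 with a median of 228.0 in distal peaks, and its median was 248 in mid-range peaks and 267.2 within 500 bp of one. Distal peaks made up 5 of the 100 highest IDR peaks, 37 of the 500 highest and 93 of the 1000 highest. The distal share grew down the ranks of the pooled list, which begins with the IDR peaks: it was 9.30% at ranks 1 to 1000, 12.2% at 1001 to 2000, 15.9% at 2001 to 4000 and 18.1% from 4001 to the end of the IDR list. Below the IDR list it was 19.3% down to rank 12000, 21.4% to 20000 and 24.3% to 30000.

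The same order was seen in each replicate's own list. Distal peaks had a median rank percentile of 42.5, 44.7 and 39.9 in replicates 1, 2 and 3, on a scale where 100 is the highest, against 51.6, 51.0 and 51.8 for all other IDR peaks. The differences were -9.11, -6.25 and -12.0 points, lower in 3 of 3 replicates (mean -9.11 ± 2.86, SD, n = 3, exact permutation test of sign flips, two-sided, p = 0.25, the smallest p that 3 samples allow). Against the mid-range peaks the difference was -6.59 ± 0.762 points (SD, n = 3, same exact p = 0.25). The design can therefore not bring this difference past a threshold of 0.05. Among the top peaks of each replicate, taken to the length of the IDR list, distal peaks made up 14.2, 14.3 and 12.4% (mean 13.6 ± 1.12%, SD, n = 3), with replicate 3 the lowest.

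Distal and other peaks were found again in the full replicate lists in similar shares. A summit lay within 100 bp in all 3 full replicate lists for 758 of 849 distal peaks (89.3%, interval 87.0 to 91.2%) and 4377 of 4897 others (89.4%, Fisher's exact test, two-sided, p = 0.952). The difference was -0.0997 points, and it was -4.29 points with a tolerance of 50 bp (Fisher's exact test p = 0.0204) and 1.25 points with 250 bp (p = 0.00528). Another 82 distal peaks were matched in 2 replicates, 9 in 1 and none in 0. Within those top peaks of every replicate, 426 distal peaks (50.2%) and 2835 others (57.9%) were found (Fisher's exact test p = 3.07e-05). In the upper 50% of the IDR list by signal these shares were 90.3% of distal and 91.0% of other peaks, and in the lower 50% they were 21.7 and 22.7%. These p-values describe the lists and not new embryos, since neighbouring peaks are not independent.

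The highest distal peak lay on arm 2R from 13035155 to 13035515, between Suppressor of zeste 2 (Su(z)2), a relative of the Polycomb group gene Posterior sex combs, and CG13323. It had a signal of 1947 and stood at ranks 22, 32 and 26 in replicates 1, 2 and 3. Scribbler (sbb), which encodes a nuclear zinc-finger co-repressor, held 3 of the next peaks in its introns, with signals of 1622, 1497 and 1120. The first of them was at ranks 73, 37 and 63, the second at 65, 58 and 87 and the third at 116, 146 and 238. The replicates thus placed the first 2 among their own top 100 peaks.

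In introns of osa, a subunit gene of the SWI/SNF chromatin remodelling complex, 2 peaks were nearly as high. The one at 1423 was at ranks 87, 64 and 72, and the one at 1355, which is nearest to CG31249, at 68, 108 and 109. The second lay 160 bp from the start of the long non-coding RNA gene lncRNA:CR46036. Frizzled (fz), a Wnt and planar polarity receptor gene, held a peak of 1137 nearest to CG13482, at ranks 232, 109 and 76. The peak of 1081 at SoxN, a Sox gene of the early neuroectoderm, was at ranks 352 and 111 in replicates 1 and 2 and at a mean rank of 188 ± 142 over the 3 (SD, n = 3). The peak of 1002 in simj, nearest to CG11811, was at 135, 236 and 240.

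Of the rest of the 15 highest, CG13896 (1238) and CG4375 (1031) had intergenic peaks at ranks 122, 102 and 133, and 385, 114 and 104. The peak of 857.2 nearest to the T-box gene midline (mid) was at ranks 499, 191 and 231, and the peak of 848.4 in ssp3 at 487, 229 and 199. CG5103 (819.2) had ranks of 292, 245 and 460, and CG6959 (808.0) had 307, 295 and 362. Replicate 1 placed CG13482, SoxN, CG4375, mid and ssp3 over 2 times as far down as either other replicate did. It also placed the highest sbb peak and the osa peak of 1423 further down than both, by less than 2 times, and the other 8 peaks did not share that order. Since the IDR list was made from the same replicates, high ranks of its 15 top distal peaks are built in.

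**Figure D2:**
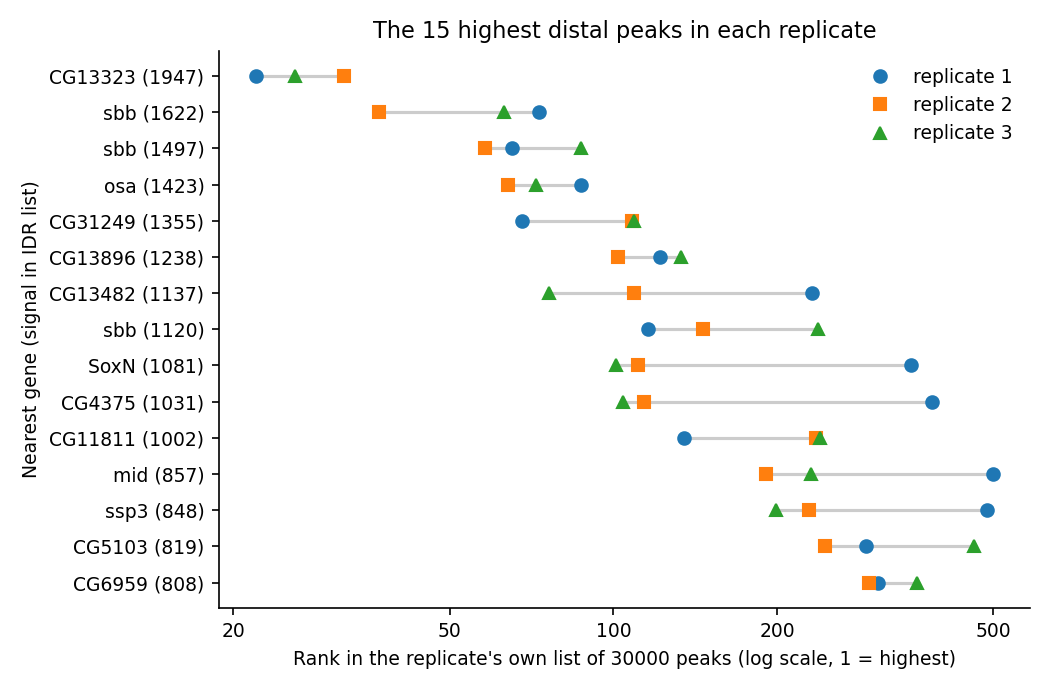
Rank of each of the 15 highest distal peaks (rows, named by nearest gene, with the signal in parentheses) in the list of 30000 peaks of replicate 1 (circles), 2 (squares) and 3 (triangles), on a log scale where 1 is the highest. The CG13323 peak is at ranks 22 to 32, and replicate 1 lies apart at CG13482, SoxN, CG4375, mid and ssp3.

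Not every high summit was matched within 100 bp in all 3 replicates. In an intron of Notch (N), the receptor gene of the Notch pathway, the peak nearest to CG18508 with a signal of 773.1 was matched only in replicate 1, at rank 203. A second summit in the same interval, with a signal of 712.9, was matched at ranks 1040, 466 and 164. A peak of 753.9 at spalt major (salm), a zinc-finger gene, was matched in replicates 2 and 3 at ranks 287 and 690, and its neighbour in the same interval, of 629.0, at 490, 460 and 554 in all 3. Such pairs of summits in 1 interval are rare among the distal peaks: 13 shared their interval with another IDR peak.

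Distal peaks lay in introns and intergenic sequence in nearly equal numbers. Of the 849, 431 (50.8%) lay in introns, 416 (49.0%) between genes and 2 in exons, of numb and of pros. Among the mid-range peaks, 62.0% were intronic (interval 60.2 to 63.8%, against 47.4 to 54.1% for distal peaks). The 433 distal peaks inside a protein-coding gene lay in 205 genes, and for 291 of them (67.2%) the nearest TSS was one of the gene that held the peak. Homothorax (hth) held 15, and sbb, kirre, SKIP and jing held 10 each. The distance to the nearest TSS had a median of 15433 bp and quartiles of 12152 and 21991 bp. The peak just inside the threshold was 10015 bp from the TSS of CG12684 (signal 257.4), and the one just outside was 9981 bp from that of CG43131 (184.9).

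Few distal peaks lay at the start of a non-coding RNA gene. Within 500 bp of such a start there were 44 distal peaks (5.18%), 40 of them at long non-coding RNA genes, against 5.37% of the mid-range peaks. After lncRNA:CR46036 the highest were at lncRNA:CR34335 (200 bp, signal 720.4), lncRNA:CR44917 (212 bp, 544.1), lncRNA:CR45451 (signal 526) and lncRNA:CR45588 (83 bp, 512.1). The next were 2 at lncRNA:CR45251 (327 and 348 bp, signals 436.6 and 395.9), and 1 each at lncRNA:CR43713 (61 bp, 420.2), lncRNA:CR45888 (91 bp, 411.1) and lncRNA:CR45365 (200 bp, 402.2). The nearest protein-coding gene of the lncRNA:CR45588 peak was corto, which encodes a chromatin protein, at 32891 bp. Annotated transposable elements held 3 distal peaks.

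Peak density fell with distance from a TSS. Sequence over 10 kb from a TSS made up 39.9 Mb, or 29.8% of the chromosome arms, and held 21.3 distal peaks per Mb (exact Poisson interval 19.8 to 22.7), against 52.1 IDR peaks per Mb in the rest of the arms. Within 500 bp of a TSS there were 132 peaks per Mb, then 37.7 at 500 to 2000 bp, 35.5 at 2 to 5 kb and 36.0 at 5 to 10 kb. The distal bins began at the same level, with 36.0 per Mb at 10 to 15 kb, and went on with 28.9 at 15 to 20 kb, 26.2 at 20 to 30 kb, 14.0 at 30 to 50 kb and 1.85 beyond 50 kb. From 500 bp to 30 kb the intervals of neighbouring bins overlapped, and from there to the bins beyond they did not. The 10.8 Mb beyond 50 kb include the inner parts of a few very long stretches between neighbouring TSSs that held no distal peak. The longest were of 2697, 713 and 612 kb. The part of these in the low density there was not tested.

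**Figure D3:**
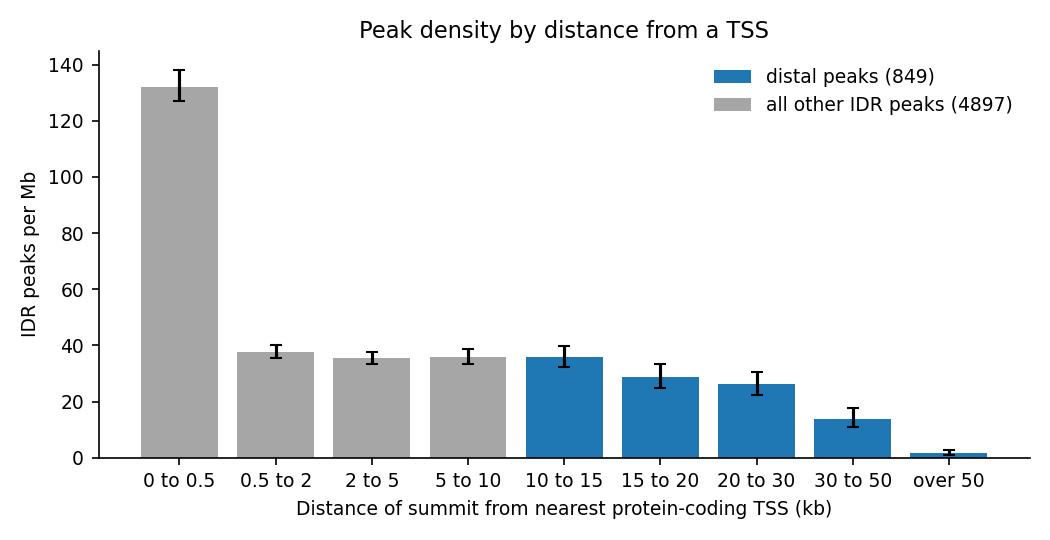
IDR peaks per Mb of sequence at each distance from the nearest protein-coding TSS (kb), with exact 95% Poisson intervals, for distal peaks (blue, 849) and all other IDR peaks (grey, 4897). Density is level from 0.5 to 15 kb, near 36 per Mb, and is 1.85 per Mb beyond 50 kb, where the longest stretches without a distal peak are counted.

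Soft-masked sequence was also more common far from a TSS, at 21.9% of the 10 to 15 kb bin and 42.9% of the sequence beyond 50 kb. Per Mb of unmasked sequence the 5 distal bins had 46.1, 37.6, 35.5, 19.9 and 3.25 peaks, in the same order. Among these 5 bins the median signal did not fall with distance: it was 223.4, 231.3, 227.9, 240.2 and 231.6. In the nearer bins, from the TSS outward, it was higher and fell, at 267.2, 253.6, 245.7 and 244.7. The share matched in all 3 replicates was 91.0, 90.9, 85.0, 90.0 and 75.0%, the last over 20 peaks.

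The arms differed in distal peak density. Arm 2L had 32.4 distal peaks per Mb (interval 28.0 to 37.3) and 3L had 23.6 (20.6 to 26.9). Arms 3R and X had 21.6 and 18.5, 2R had 12.6 (10.2 to 15.4), and the small chromosome 4 had 1 distal peak (2.91 per Mb). With masked sequence included, the interval of 2L overlapped with that of no other arm. That of 2R touched only those of X (15.3 to 22.1) and chromosome 4 (0.0738 to 16.2). Outside the sequence over 10 kb from a TSS the same arms spanned only 45.9 to 57.1 IDR peaks per Mb, chromosome 4 aside (26.9). Counted in unmasked sequence, 2L had 42.9 (interval 37 to 49.4) and 2R had 18.6 (15.1 to 22.6) distal peaks per Mb. The interval of 2L then overlapped that of 3L (29.7 to 38.8). The longest stretches without a distal peak, of 2697, 713 and 612 kb, lay on 3R, 3L and 2R and count toward these densities. Their part in the differences between arms was not tested.

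Distal peaks lay in a minority of the available stretches between TSSs, which can run through introns. Of 1481 stretches between neighbouring TSSs that reach over 10 kb from both, 354 (23.9%) held at least 1 distal peak, 41 held at least 5 and 11 held at least 8. Of 316 such stretches over 50 kb, 195 held none. The longest empty ones were the 2697 kb between Myo81F and Pzl on 3R, 713 kb between CG42598 and CG40228 on 3L and 612 kb between CG41520 and CG17684 on 2R. Another IDR summit lay within 5 kb of 545 distal peaks (64.2%), against 68.5% of the mid-range peaks and 57.3% of those within 500 bp of a TSS. Runs of 3 or more distal summits at most 5 kb apart numbered 70 and held 259 peaks. The longest run, of 9 summits, was the one in sbb.

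The richest stretch was the 179 kb between the cytochrome P450 gene Cyp12e1 and hth, which encodes a homeodomain cofactor of Hox proteins, with 15 distal peaks. Of these, 13 lay inside hth. The highest had a signal of 752.6, 42893 bp from the TSS, at ranks 825, 266 and 233. The next, of 542.9 at 77060 bp, was at ranks 569, 884 and 938, and the third, of 512.7 at 56293 bp, at 1706, 664 and 758. The 2 distal peaks farthest from any TSS were also here, in the hth intron but nearest to Cyp12e1, at 86617 bp (signal 222.3, ranks 5789, 2495 and 7185) and 85798 bp (signal 158.9, ranks 3926 and 5195 in replicates 1 and 2, no match in replicate 3).

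Of the other distal peaks farthest from a TSS, several were at CG12362. This gene, whose neighbour across the stretch is the odorant receptor gene Or67d, was nearest to peaks at 68624, 66287 and 61900 bp with signals of 371.4, 217.4 and 188.7. The peak in olf413 at 63277 bp had a signal of 170.5, and the one nearest to Prat2 at 60301 bp, in the stretch that Prat2 shares with the POU gene ventral veins lacking (vvl), had 232.3. Both were matched in 2 replicates.

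The stretch between the T-box genes H15 and mid held 9 distal peaks in 57.0 kb, the highest of 420.2 at ranks 1862, 921 and 1317. The stretch between tailup (tup), a LIM-homeodomain gene of motor neurons, and ssp3 held 9, that between vvl and Prat2 held 9, and that between commissureless (comm), which controls axon crossing at the midline, and CG6244 held 9. The genes grim and reaper (rpr), both activators of cell death, enclosed 8 peaks, the highest of 661.3 at ranks 329, 689 and 598. The stretches of jing and CG15233, of CG7320 and CheA75a and of Tango8 and sbb held 10 each, the last within 45.5 kb. The Iroquois genes caupolican and mirror enclosed 6 in 84.0 kb. The sbb stretch held 3 peaks of 1120 to 1622, and the highest peaks of the jing and CheA75a stretches had signals of 457.2 and 682.2.

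**Figure D4:**
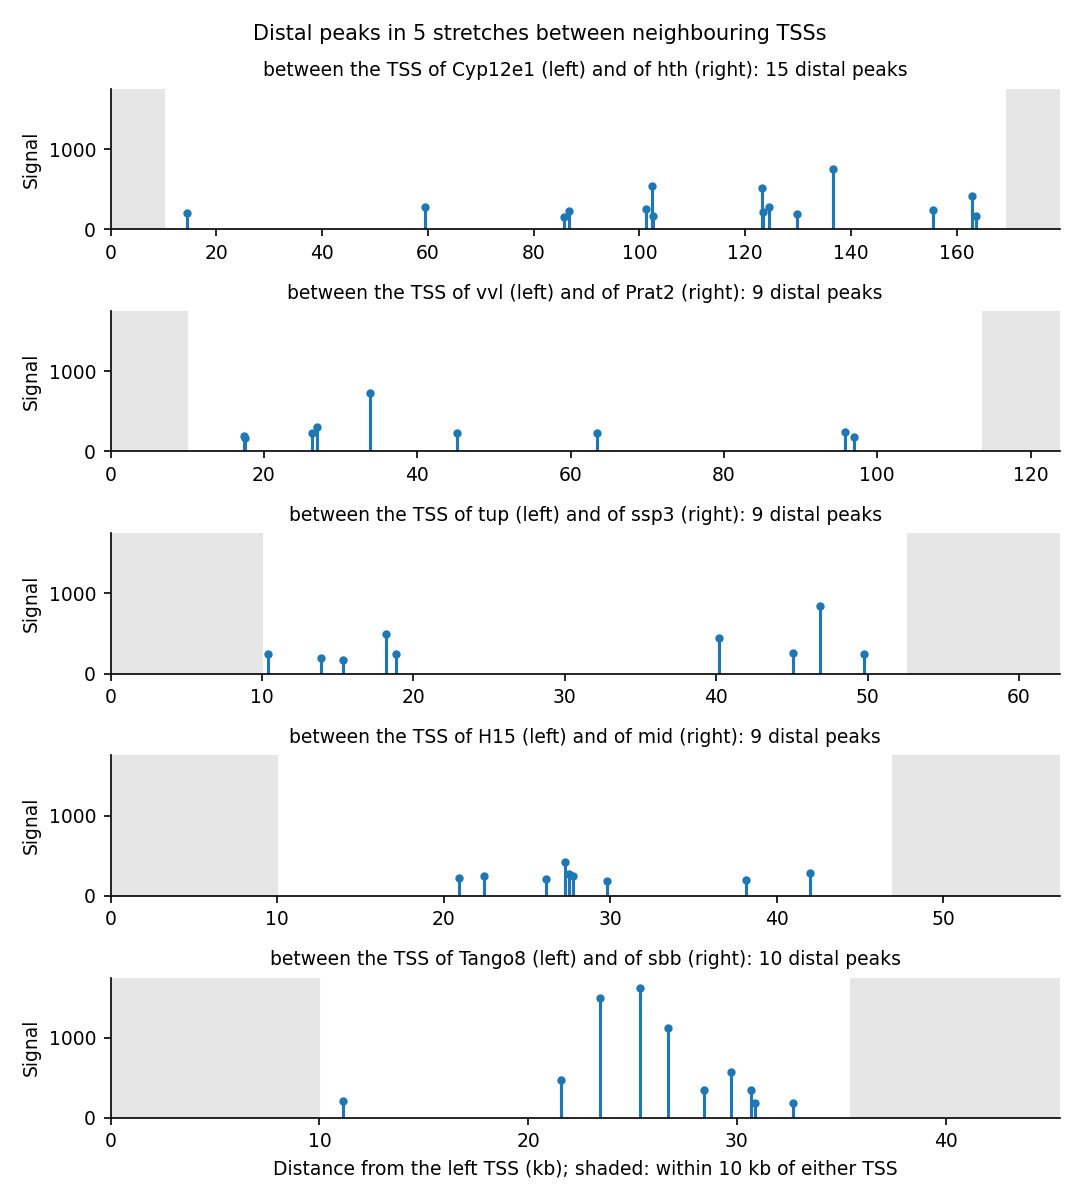
Signal (authors' scale) of each distal peak against its distance in kb from the left TSS, in 5 stretches between neighbouring TSSs; sequence within 10 kb of either TSS is shaded. Between Cyp12e1 and hth 15 peaks spread over the 179 kb, while the 10 between Tango8 and sbb crowd around 3 peaks of 1120 to 1622.

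Counted by nearest gene, 422 genes had at least 1 distal peak, which is 18.1% of the 2331 genes that are nearest to some sequence over 10 kb from a TSS. Of these, 226 had 1 distal peak and 32 had 5 or more. The hth gene had 17, which is most of its 23 IDR peaks, and CG43245 had 10. The sbb gene had 8. CG42238, CG6163, CheA75a, H15, jing, kirre and noc had 7 each. Kirre encodes an immunoglobulin superfamily protein of myoblast fusion, and noc and jing encode zinc-finger proteins.

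The tagged locus itself took no part. Gsb had 8 IDR peaks and gsb-n had 7, and none was distal. Only 1.19 kb of sequence over 10 kb from a TSS is nearest to gsb, and none to gsb-n. Wingless (wg), the Wnt ligand gene, had 2 distal peaks of its 5 IDR peaks. The higher, of 661.0, was at ranks 568, 584 and 418, and the other, of 278.0, at 1984, 3480 and 2411. Engrailed (en), a homeodomain gene of the posterior compartment, had 4 distal of 5 IDR peaks, the highest of 536 at ranks 1072, 980 and 393.

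Genes were also grouped by lists of developmental roles, and distal peaks were counted per Mb of the sequence that is nearest to their members and over 10 kb from a TSS. Over all genes the value was 21.3 per Mb, and 18.1% of genes with such sequence had a distal peak, with a median of 0. The lists share some genes, and the long empty stretches named above count toward the value over all genes. The lists were not tested.

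Among the patterning lists, those of segment polarity and Hox genes had the most distal peaks per Mb, though the intervals of all of them overlap. Of 10 segment polarity genes with such sequence, 8 had a distal peak, with a median of 3 and 28 peaks in all (122 per Mb, exact Poisson interval 81.1 to 176). H15 had 7, mid 5 and en 4. Of 8 Hox and cofactor genes 7 had one, with a median of 2 and 32 peaks (113 per Mb, 77.5 to 160.0), 17 of them at hth, 6 at Antennapedia (Antp) and 3 at abd-A. The highest Antp peak, of 497.2, was at ranks 747, 1106 and 1488. The pair-rule list had 4 of 7 genes and 5 peaks (81 per Mb, 26.3 to 189), 2 of them at ftz (highest 405.4, ranks 1900, 1217 and 1223). The others were 1 each at hry, odd and Ptx1, which that list also held although it is not a pair-rule gene. The gap and head gap list had 4 of 7 and 6 peaks (64.6 per Mb, 23.7 to 141), 2 each at ems and oc.

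Genes of the nervous system differed by list. The neuronal identity list had 23 peaks at 5 of 11 genes (65.8 per Mb, 41.7 to 98.7, median 0), with 7 at jing, 6 at vvl and 5 at tup. The top vvl peak, of 733.3, was at ranks 481, 343 and 355, and that of tup, of 497.7, at 1543, 763 and 619. Neuroblast and proneural genes had 7 peaks at 4 of 12 genes (49.4 per Mb, 19.9 to 102), including 2 each at Dr and SoxN. Axon guidance genes had 15 at 5 of 19 (40.2 per Mb, 22.5 to 66.3), with 5 each at Sema1a, a semaphorin gene, and comm, and 3 at NetA, a netrin gene. The glial list had the highest density of all lists, 179 per Mb (48.7 to 458), over only 0.0224 Mb of such sequence. Its 4 peaks were all at 1 of 3 genes, the ETS gene pointed (pnt), whose highest, of 572.3, held the octamer and was at ranks 1118, 570 and 627.

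Genes of synaptic recognition had few distal peaks. The dpr and DIP genes, immunoglobulin proteins of synaptic recognition, were nearest to 1 distal peak, at DIP-delta (signal 421, ranks 1276, 1231 and 1645). The list had 22 genes with 0.436 Mb of such sequence (2.29 per Mb, 0.058 to 12.8). An intron of DIP-alpha held a higher distal peak, of 720.4, at ranks 641, 303 and 489. It is nearest to the TSS of ppk8 and so is not counted in this list. Terminal neuronal differentiation genes had 2 peaks at 2 of 10 genes (9.55 per Mb, 1.16 to 34.5), Syx1A and fne, a share of genes close to the 18.1% of all genes. Odorant and gustatory receptor genes had 2 at 2 of 22 genes (9.09%, 7.80 per Mb, 0.944 to 28.2), Or67d and Or98a. The intervals of both lists include the 21.3 per Mb of all genes. Of 85 cytoplasmic ribosomal protein genes 8 had such sequence, 0.233 Mb in all, and none had a distal peak, with an exact Poisson interval of 0 to 15.9 per Mb.

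Lists for other tissues and for signalling had 42.5 to 164 distal peaks per Mb. The endoderm and Notch values were above the 122 of the segment polarity list, but their intervals overlap its interval of 81.1 to 176. The mesoderm and muscle list had 12 peaks at 4 of 10 genes (119 per Mb), with 7 at kirre and 2 at slou. The endoderm and midgut list had 7 at 3 of 5 (164 per Mb, 65.8 to 337), with 4 at the forkhead gene fkh and 2 at wg. The trachea list had 15 at 6 of 10 (64.3 per Mb), 6 at vvl and 5 at salm. The Wnt list had 12 at 7 of 11 (85.5 per Mb), 3 each at the receptor gene fz2 and at naked cuticle (nkd), a feedback inhibitor of the pathway. The Notch list had 8 at 4 of 6 (137 per Mb, 59.2 to 270.2), 3 at the ligand gene Serrate and 3 at nkd. That list also held nkd although it belongs to Wnt signalling, and the segment polarity list holds it too. With its 3 peaks in 11.1 kb, the place of the Notch value above 122 rests in part on nkd. The receptor tyrosine kinase and BMP list had 12 at 6 of 14 (71.0 per Mb), 4 at pnt and 3 at the inhibitor gene sprouty (sty). The ecdysone list had 8 at 5 of 10 (42.5 per Mb, 18.4 to 83.8), 2 each at EcR, Eip75B and Hr4. The chromatin and Polycomb list had 6 at 2 of 6 (84.6 per Mb), 5 of them at corto and 1 at Su(z)2.

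**Figure D5:**
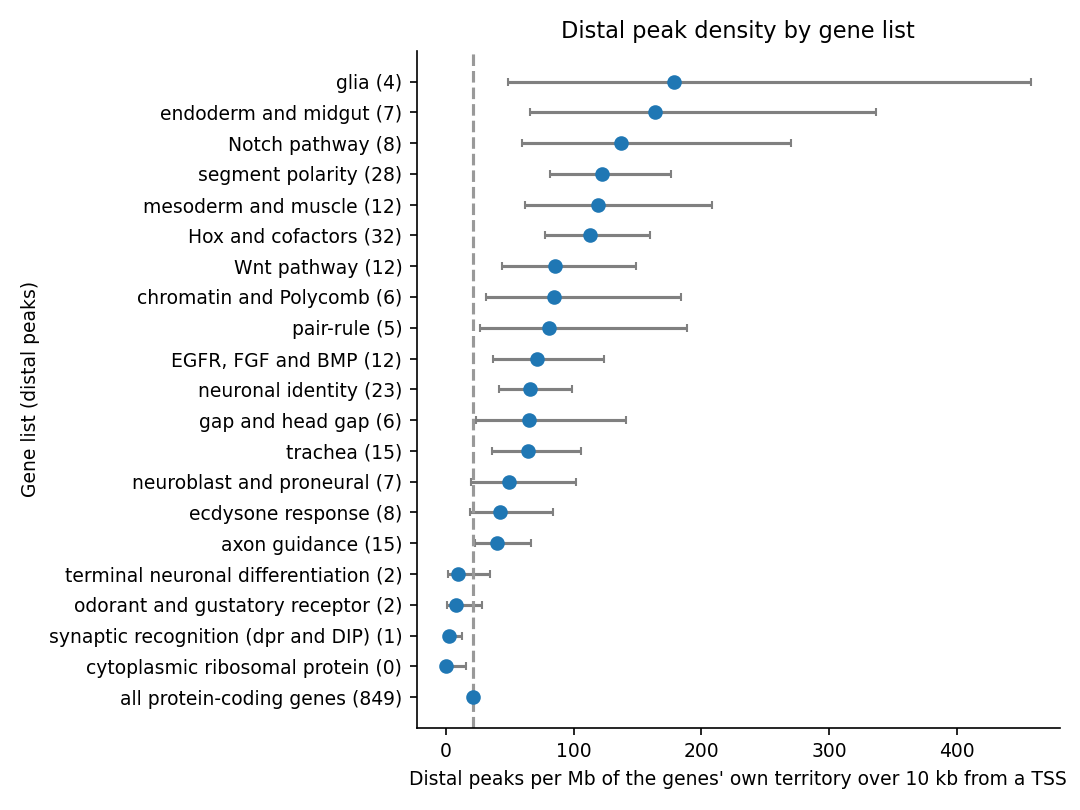
Distal peaks per Mb of sequence over 10 kb from a TSS that is nearest to the members of each gene list (number of distal peaks in parentheses), with exact 95% Poisson intervals; the bottom row and the dashed line give all protein-coding genes, at 21.3 per Mb. The segment polarity and Hox lists lie at 122 and 113 per Mb, the glial list, with 4 peaks, at 179 and the dpr and DIP list at 2.29.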

How the data were processed

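The authors deposited peak lists on dm6: per the file headers and notes, 3 replicate lists and 1 pooled list of 30000 relaxed peaks each, and an IDR list that is the top of the pooled list. The authors' signal column ranked peaks within a list. Their deposited −log10 q values were only inspected. Which aligner, peak caller and IDR threshold were used is not given in the sources used here. No list holds read counts, so depth is unknown and intervals cover counting error only. TSSs were those of 13945 protein-coding genes of Ensembl release 115 on 6 arms. Sequence came from the RefSeq copy of release 6.

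Distances, windows reaching 100 bp to either side of a summit, matches within 100 bp, exact McNemar and Fisher tests with Benjamini-Hochberg adjustment (threshold 0.05) and a sign-flip permutation test were computed with Python 3.11.15, numpy 2.4.6, pandas 2.3.3 and scipy 1.17.1, and drawn with matplotlib 3.10.9. The hexamer scans were tested on simulated data, and the octamer and motif scans were not. Flanks within 300 bp of another IDR summit were left out. Fisher and McNemar p-values describe the lists, since peaks are not independent, and the spread between the 3 samples of the 1 group measures these samples. Named genes are the nearest and host genes of the 15 highest distal peaks, the 10 genes with the most, the nearest genes of the 10 farthest peaks, up to 2 leading members of each of 20 gene lists, non-coding RNA genes at the 10 highest peaks within 500 bp of their start, and gsb, gsb-n, wg, en and hth; further genes were named after their values were seen. The members, lists, motifs and tests were chosen with earlier results of these data known. One listed name, tango, matched no gene.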

Additional observations from a re-analysis of the deposited data

How the results depend on the processing

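The share of distal peaks, 14.8%, was 28.4% with a distance of 5 kb, 4.58% with 20 kb, 22.0% with gene starts in place of transcript starts, 9.19% with the starts of non-coding RNA genes included and 12.3% in the upper 50% of the list by signal; without 1 replicate it was 14.7 to 14.8%. Except for the rank difference, values without 1 replicate used the IDR peaks with a summit within 100 bp in both other replicate lists. The IDR list itself was still made from all 3 replicates. Of its distal peaks 89.3% were matched in all 3, so stable values are largely built in. The rank difference stayed below 0 under every alternative, at -10.5 to -7.68 points as the mean of the 2 replicates left. The difference in the share found in all 3 replicates, -0.0997 points, was -4.29 with a tolerance of 50 bp (Fisher's exact test p = 0.0204), 1.25 with 250 bp (p = 0.00528), -7.72 in the top lists (p = 3.07e-05) and 2.02 with 5 kb (p = 0.0257), so its sign rests on these settings. Density, 21.3 peaks per Mb, was 26.5 with 5 kb, 11.8 with 20 kb, 30.1 in unmasked sequence and, added later, 28.4 at 10 to 50 kb. No motif was called against other non-promoter peaks under any alternative (0 called without each replicate too). Against flanks 1 was called with the upstream flank and 0 otherwise, also without each replicate. The 2 called hexamers became 0 with windows of 50 bp to either side, 5 with 200 bp, and 0 with 5 or 20 kb; CTGTAA lost its call and CGGGAA kept it with 200 bp. Hexamers called against flanks, 69, were 20 with 50 bp and 33 with 200 bp to either side, and 70 to 86 without 1 replicate. Octamers, 8, were 0 with 50 bp to either side, 11 with the upstream flank, and 6 to 8 without 1 replicate; CACTGAGA passed in all but these narrow windows, which leave out most of its copies, and its log2 fold was 4.00 there, 3.64 with the upstream flank and 2.70 with 200 bp, against 4.49. The cause of the moved values, that of the octamers included, was not tested. No paired analysis was possible because there is only 1 group. No read depth is known, so none of these limits can be set against depth.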

Other observations

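Distal peaks were a larger share of the weaker lists. Of the 24254 pooled peaks below the IDR list, 5347 (22.0%, Wilson interval 21.5 to 22.6%) were over 10 kb from a TSS, against 14.8% within the IDR list, and the full replicate lists had 20.3, 19.7 and 18.7%. Of the distal IDR peaks, 550 of 849 (64.8%) lay downstream of the nearest TSS in the direction of its transcription, and 75 lay inside an annotated non-coding RNA gene. For 291 distal peaks the nearest TSS belonged to the gene that held the peak. Neither share is given for other peaks.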
